A study of Drosophila melanogaster with 16 samples.

Results

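The spermatogenesis genes described here were 34 genes of the fly testis, chosen by name as known testis genes and not by a threshold on their values. Each gene was read from the brightest probe set annotated to it alone, and 30 of the 34 had such a probe set, out of 11983 genes with one on the array. These 30 were 9 meiotic arrest regulators and 21 late sperm genes, a class that here holds the genes of meiotic entry, spermatid mitochondria, sperm chromatin, tail proteins and sperm enzymes. The other 4 genes, loopin-1, S-Lap1, S-Lap3 and S-Lap4, were not analysed here. In the RefSeq annotation (Release 6 plus ISO1 MT) Mst35Ba lies next to Mst35Bb, dj next to djl, Mst98Ca next to Mst98Cb and ocn next to janB, and Mst84Da, Mst84Db, Mst84Dc and Mst84Dd follow each other, with 0 protein-coding genes between neighbours. Such copies resemble each other, and how far their probe sets tell them apart is not given in the sources used here.

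Spermatogenesis in Drosophila ends with the building of very long sperm. Primary spermatocytes switch on most of the genes that spermatids later use, and this switch needs a group of regulators whose loss stops germ cells before the meiotic divisions, the meiotic arrest genes. Some of these regulators encode subunits of the testis meiotic arrest complex (tMAC), which sits on chromatin in spermatocytes. Others encode testis versions of the TATA-binding-protein-associated factors (testis TAFs), relatives of general transcription factor subunits. After meiosis the spermatid mitochondria fuse, the axoneme grows inside the tail, and histones in the head are replaced by protamine-like proteins.

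The levels came from 16 whole flies, 1 fly per Affymetrix Drosophila Genome 2.0 array and 4 flies per group, and are log2 of the intensity after the authors' GCRMA normalization. CH-dmDys flies (replicates 5, 6, 7 and 8) spent 2 weeks in chronic hypoxia (CH) at low pressure on a mountain that was climbed to 6194 m, with oxygen between 16.3% and 9.9%. Normoxic dmDys flies (replicates 6, 7, 8 and 10) breathed room air in Philadelphia. CH-WT flies (replicates 3, 5, 6 and 7) spent 2 weeks in a hypoxic chamber at normal pressure in Philadelphia, at the same oxygen levels, and normoxic WT flies (replicates 2, 3, 5 and 6) breathed room air there. The labels give all flies as adults of 3 to 5 days. The dmDys flies carried UASdmDysC-term, an RNA interference construct against the muscle protein dystrophin, under the ubiquitous driver P-tub-Gal4, and the WT flies carried this driver alone. The sex of the flies is not given. In each sentence of values below, flies stand in the order of the replicate numbers above. Precision is limited by how many arrays there are, and nothing says whether flies of a group came from separate cultures, so p-values measure the spread between these flies only.

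Transcripts of the testis were bright in 14 of the 16 flies and close to the floor of the arrays in 2 WT flies, CH-WT replicate 7 and normoxic WT replicate 5. Over the 30 measured genes the median log2 level of a fly was 13.73 to 14.13 in the 8 dmDys flies, 12.81 to 13.32 in 6 WT flies, 2.31 in CH-WT replicate 7 and 2.24 in normoxic WT replicate 5. Every late sperm gene lay more than 2 log2 units above the lowest value of its array in the 14 flies, and every gene of the accessory gland and ejaculatory bulb, male organs that make seminal fluid, did so in all 16 (17 of 17 genes). Of 15 genes of yolk, eggshell and egg, 1 or 2 lay above that limit in each fly. Results on WT flies are therefore given with all 8 flies and without these 2, a choice that rests on the levels of these same genes. The lowest values were 2.06 in dmDys and 1.95 in WT arrays and the upper quartiles 10.17 to 10.27 in dmDys and 8.98 to 9.09 in WT arrays, so a level in dmDys flies and one in WT flies are not on 1 scale. No test set a level in dmDys flies against one in WT flies, and only the CH differences within each genotype were compared by a test. Dystrophin itself (Dys), the gene the construct targets, has 5 probe sets, and the brightest had log2 levels of 8.21 to 9.13 in CH-dmDys flies, 5.89 to 9.62 in normoxic dmDys flies, 7.97 to 9.27 in CH-WT flies and 7.67 to 9.82 in normoxic WT flies. These ranges overlap, the scales differ and the place of the probes relative to the construct is not given here, so this does not check the genotype labels. In whole flies, fewer cells of a type and less RNA per cell cannot be told apart.

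**Figure D1:**
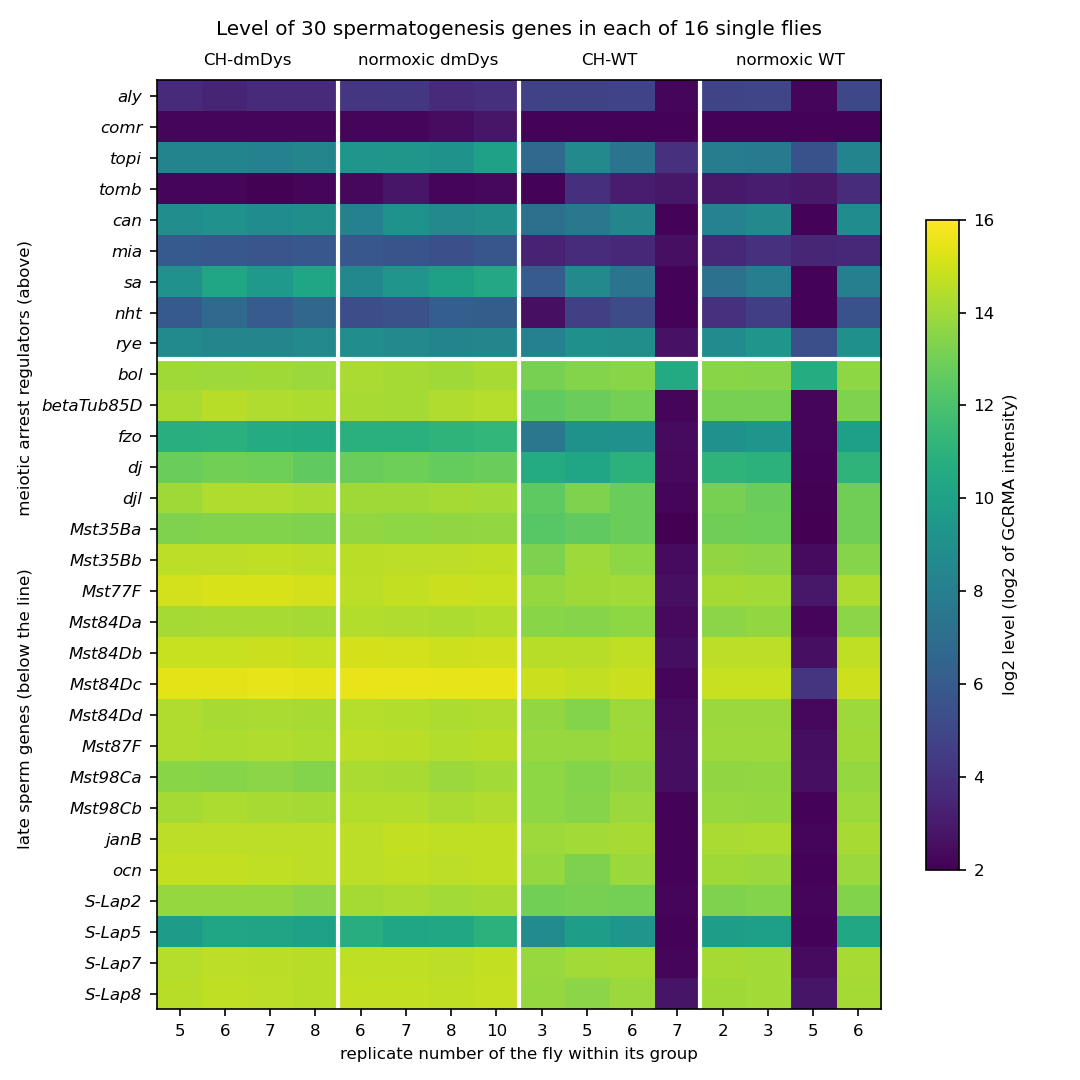
Each row is 1 of the 30 genes and each column 1 fly, in 4 groups of 4; colour gives the log2 level (log2 of GCRMA intensity) from 2 (dark) to 16 (yellow). The dark columns are CH-WT replicate 7 and normoxic WT replicate 5, where the median over the 30 genes was 2.31 and 2.24 and bol alone among late sperm genes stayed bright, at 10.54 and 10.65.

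Under CH in dmDys flies, topi was the member that changed by the whole call rule, and several late sperm genes were lower by small amounts. A probe set was called when its limma adjusted p (Benjamini-Hochberg, over all 18907 probe sets) was under 0.05 and its log2 difference, CH-dmDys minus normoxic dmDys, was at least 1 in size, the 2-fold cut-off of the study. By this rule 1 of 30 spermatogenesis genes was called, and it was lower (3.33% of the members). Over all 18907 probe sets 1801 were called (9.53%), 769 of them lower (4.07%). By the adjusted p alone 10 of 30 members passed, 9 lower and 1 higher (33.3%, against 20.2% of all probe sets). Of all probe sets 10.6% passed and were lower, and 9.62% passed and were higher. The groups did not overlap in 11 of 30 members, 10 of them lower in CH-dmDys flies (36.7%, against 29.1% of all probe sets). Of all probe sets 15.2% did not overlap and were lower. The count by the adjusted p was 5 without normoxic dmDys replicate 7, 6 without normoxic dmDys replicate 6, its replicate 10 or CH-dmDys replicate 8, and 13 without normoxic dmDys replicate 8.

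Most of these genes were late sperm genes. Of 9 meiotic arrest regulators 1 passed the adjusted p, lower, and 1 had groups that did not overlap. Of 21 late sperm genes 8 were lower and 1 higher by the adjusted p, and 10 had groups that did not overlap. The median log2 difference was -0.03 over the regulators, -0.17 over the late sperm genes and -0.0001 over all probe sets. All probe sets are not a background matched for level. Their median log2 level was 3.65 to 3.80 in the 8 dmDys flies, against 14.23 to 14.41 for the late sperm genes. No test was run on the classes, whose genes were chosen together. The classes also differ in size and in spread, so their counts are not on equal terms. The median SD was 0.11 over regulators and 0.06 over late sperm genes in CH-dmDys flies, and 0.30 and 0.07 in normoxic dmDys flies. The part of this in the counts was not tested.

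Among the 4 tMAC subunits, all of them lower in mean, topi stood apart. Topi, a zinc finger protein of the complex, had log2 levels of 8.29, 8.30, 8.16 and 8.38 in CH-dmDys flies, against 9.35, 9.43, 9.21 and 10.01 in normoxic dmDys flies. Each CH-dmDys fly was below each normoxic dmDys fly, and the lowest and the highest normoxic fly were further apart than the 4 CH-dmDys flies were. The log2 difference was -1.22 (standard error 0.18, limma adjusted p = 0.007). It stayed past the threshold when any of the 8 flies was left out (adjusted p from 0.003 to 0.027). In 1 limma fit over all 4 groups topi did not pass, and in such a fit with the 2 WT flies left out, chosen after the data were seen, its adjusted p was 0.024.

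The other tMAC genes were nearer the floor and did not pass in the fit of all 8 flies. Aly, a relative of a general chromatin complex subunit, had log2 levels of 3.68, 3.47, 3.68 and 3.68 in CH-dmDys flies, against 4.20, 4.26, 3.68 and 3.87 in normoxic dmDys flies (log2 difference -0.37, standard error 0.14, adjusted p = 0.127). The groups met at a level of 3.68. Aly did pass, lower, without normoxic dmDys replicate 8 (adjusted p = 0.038) and when arrays were centred (adjusted p = 0.027). Comr had log2 levels of 2.24, 2.27, 2.20 and 2.24 in CH-dmDys flies, against 2.24, 2.26, 2.44 and 2.86 in normoxic dmDys flies. Tomb, a DNA-binding subunit, had 2.20, 2.20, 2.10 and 2.19 in CH-dmDys flies, against 2.32, 2.87, 2.20 and 2.30 in normoxic dmDys flies. Both genes lay within 1 log2 unit of the lowest value of the arrays in all 8 flies, where the arrays measure little.

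The 5 testis TAFs did not pass the test, and 4 of them were higher in mean in CH-dmDys flies. Nht, related to TAF4, had the largest difference, with log2 levels of 5.95, 6.76, 6.03 and 6.63 in CH-dmDys flies, against 5.38, 5.49, 6.16 and 6.12 in normoxic dmDys flies (log2 difference 0.56, standard error 0.28, adjusted p = 0.248). Can, related to TAF5, had 8.87, 9.08, 8.83 and 8.98 in CH-dmDys flies, against 8.13, 9.19, 8.59 and 8.91 in normoxic dmDys flies (log2 difference 0.24, standard error 0.23, adjusted p = 0.646). The spread of can was wider among normoxic flies, whose range held that of the CH-dmDys flies. Sa, related to TAF8, had 9.08, 10.24, 9.56 and 10.25 in CH-dmDys flies, against 8.54, 9.28, 9.98 and 10.45 in normoxic dmDys flies (log2 difference 0.22, standard error 0.49, adjusted p = 1.000). It varied the most among flies of all 9 regulators in both dmDys groups, with a SD of 0.57 in CH-dmDys and 0.84 in normoxic dmDys flies. Mia, related to TAF6, had 5.99, 5.78, 5.68 and 5.80 in CH-dmDys flies, against 5.82, 5.65, 5.43 and 5.76 in normoxic dmDys flies. Rye, related to TAF12, had 8.72, 8.35, 8.35 and 8.61 in CH-dmDys flies, against 8.85, 8.58, 8.31 and 8.43 in normoxic dmDys flies (log2 difference -0.03). For mia and rye the groups overlapped along most of their range.

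Bol and betaTub85D, the members that work around meiosis, moved little. Bol, the RNA-binding protein Boule that germ cells need for entry into the meiotic divisions, had log2 levels of 13.99, 13.95, 14.00 and 13.91 in CH-dmDys flies, against 14.22, 14.13, 14.02 and 14.16 in normoxic dmDys flies. The groups did not overlap, but by a narrow margin, and the log2 difference of -0.17 (standard error 0.05, adjusted p = 0.047) no longer passed without any 1 of 7 of the 8 flies (adjusted p up to 0.121; without normoxic dmDys replicate 8 it was 0.009). BetaTub85D, the beta-tubulin of meiotic spindles and the sperm axoneme, had 14.23, 14.50, 14.35 and 14.28 in CH-dmDys flies, against 14.16, 14.10, 14.31 and 14.42 in normoxic dmDys flies, and the groups overlapped (log2 difference 0.09, adjusted p = 0.658).

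Of the 3 genes of spermatid mitochondria and tail none passed in the fit of all 8 flies. Fzo, a mitofusin that joins the mitochondria of young spermatids, had log2 levels of 10.75, 10.88, 10.62 and 10.57 in CH-dmDys flies, against 10.91, 10.87, 11.09 and 11.29 in normoxic dmDys flies (log2 difference -0.34, standard error 0.12, adjusted p = 0.095). It did pass, lower, when arrays were centred (adjusted p = 0.011) or quantile normalized (0.047). Dj, a protein of the mitochondria along the sperm tail, had 12.81, 13.04, 12.92 and 12.58 in CH-dmDys flies, against 12.82, 12.90, 12.67 and 12.87 in normoxic dmDys flies (log2 difference 0.02). For its neighbour djl the log2 difference was 0.18, with a standard error of 0.07 and an adjusted p of 0.145. Djl did pass, higher, with array weights (adjusted p = 0.009) and without CH-dmDys replicate 5 (0.020).

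The 3 genes of sperm chromatin did 3 different things. Mst35Ba, a protamine that packs DNA in the sperm head, had log2 levels of 13.31, 13.37, 13.33 and 13.31 in CH-dmDys flies, against 13.73, 13.64, 13.66 and 13.72 in normoxic dmDys flies. This is a log2 difference of -0.36 (standard error 0.02) with the lowest adjusted p of the 30 genes, 8.1e-04, and every normoxic fly lay above every CH-dmDys fly. Its neighbour Mst35Bb, the other protamine, had 14.58, 14.63, 14.67 and 14.59 in CH-dmDys flies, against 14.54, 14.61, 14.61 and 14.64 in normoxic dmDys flies (log2 difference 0.02, standard error 0.03, adjusted p = 1.000). Mst77F, a linker-histone-like protein of the same chromatin, had 15.06, 15.17, 15.14 and 15.05 in CH-dmDys flies, against 14.61, 14.69, 14.90 and 14.84 in normoxic dmDys flies. It was the member that was higher by the adjusted p, its log2 difference being 0.35 ± 0.07 (standard error) at an adjusted p of 0.021, and it failed without normoxic dmDys replicate 7 or either of CH-dmDys replicates 6 and 7 (adjusted p up to 0.062).

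The Mst genes with Cys-Gly-Pro repeats, which encode outer proteins of the sperm tail, were lower in mean in all 7 cases, and 5 of the 7 passed the adjusted p. Mst98Ca had the largest difference among them, with log2 levels of 13.53, 13.46, 13.54 and 13.40 in CH-dmDys flies, against 14.22, 14.16, 13.87 and 14.04 in normoxic dmDys flies (log2 difference -0.59, standard error 0.08, adjusted p = 0.006). Mst84Da (-0.21, adjusted p = 0.006), Mst84Db (-0.18, adjusted p = 0.026) and Mst84Dc (-0.08, adjusted p = 0.020) were lower by small log2 differences. Mst87F had 14.31, 14.30, 14.35 and 14.26 in CH-dmDys flies, against 14.61, 14.54, 14.37 and 14.47 in normoxic dmDys flies (log2 difference -0.19, standard error 0.05, adjusted p = 0.0498), and it did not pass without any 1 of the same 7 flies as bol. Mst98Ca and Mst84Da passed in all 8 fits that left out a fly, while Mst84Db failed in 6 of them and Mst84Dc in 4. Mst84Dd (-0.11, adjusted p = 0.193) and Mst98Cb (-0.17, adjusted p = 0.053) did not pass.

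Of 4 sperm leucyl aminopeptidases, enzymes that are abundant in mature sperm, S-Lap2 passed. It had log2 levels of 13.80, 13.78, 13.79 and 13.55 in CH-dmDys flies, against 14.10, 14.20, 14.04 and 14.19 in normoxic dmDys flies (log2 difference -0.40, standard error 0.07, adjusted p = 0.012), and it passed whichever fly was left out (adjusted p up to 0.039). S-Lap5 had 9.70, 10.28, 10.17 and 10.00 in CH-dmDys flies, against 10.73, 10.25, 10.40 and 11.02 in normoxic dmDys flies, a larger difference of -0.56 with a larger standard error of 0.21 (adjusted p = 0.117). S-Lap7 (-0.12, adjusted p = 0.073) and S-Lap8 (-0.17, adjusted p = 0.055) were lower in mean and did not pass. JanB and ocn, neighbouring genes of the testis, had log2 differences of -0.04 and 0.03 and did not pass. When arrays were centred or quantile normalized, Mst98Cb, S-Lap7, S-Lap8 and janB passed, all lower, and with centring Mst84Dd and S-Lap5 passed as well.

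A measure of RNA integrity and amplification moved with the same groups. The 3' minus 5' log2 value of 3 control transcripts (eIF-4a, Gapdh and Act5C), which is small where transcripts were amplified along their whole length, was 3.29 ± 0.54 in CH-dmDys flies, against 8.46 ± 2.01 in normoxic dmDys flies (mean ± SD of 4). An exact permutation test, two-sided, gave p = 0.029, the smallest it can give here, and 0.029 adjusted over 2 such tests. The groups did not overlap, and the part of this measure in the differences of the spermatogenesis genes was not tested.

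**Figure D2:**
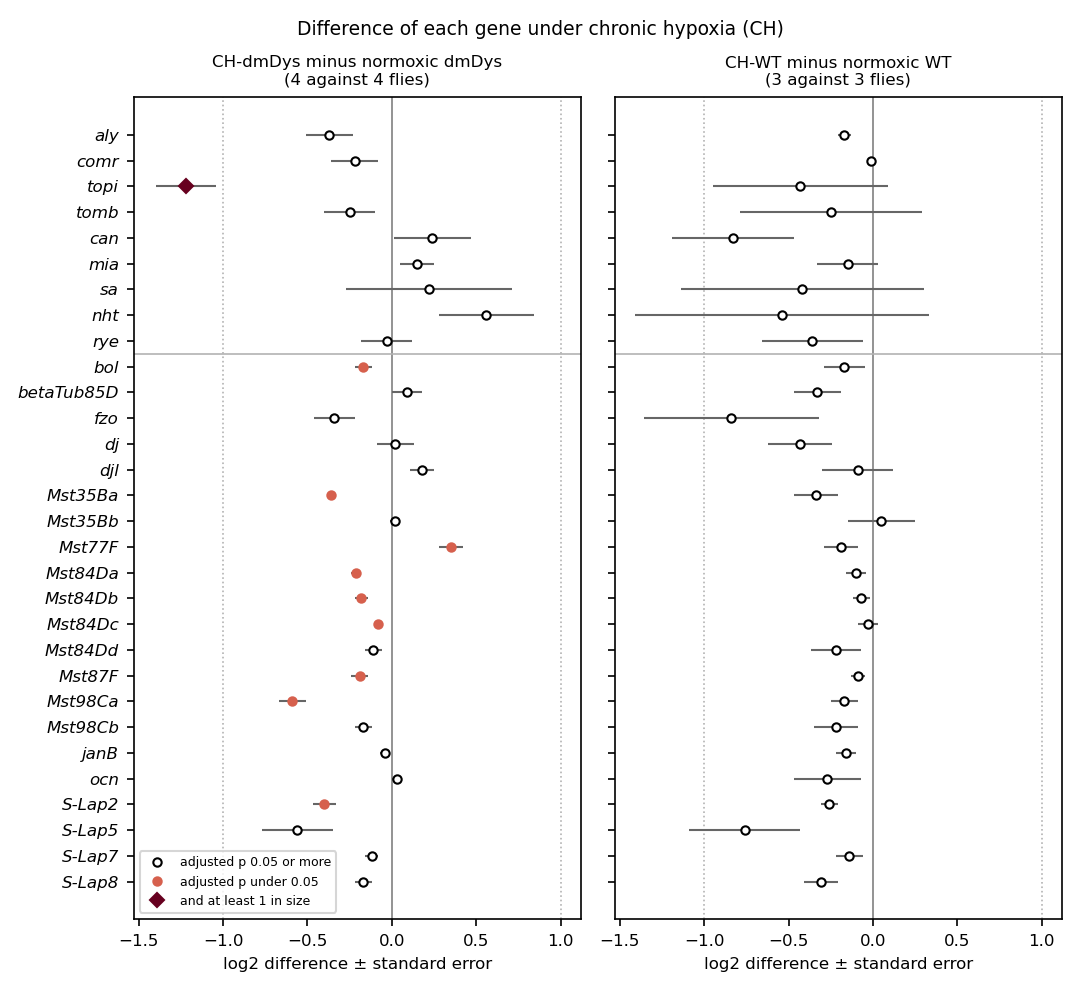
Points give the log2 difference of each gene under CH and bars its standard error, for CH-dmDys minus normoxic dmDys (left) and CH-WT minus normoxic WT with the 2 flies that lacked testis signal left out (right); dotted lines mark a difference of 1 in size. On the left topi, at -1.22, lies past the line and 9 late sperm genes are filled (adjusted p under 0.05); on the right 29 of 30 points lie below 0 and none is filled.

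In both directions together the share of related genes called was near that of all probe sets, but most of these calls were lower. Over 10 lists with 96 genes 12 were called (12.5%, against 9.53% of all probe sets), 11 of them lower and 1 higher. Of all probe sets 4.07% were called lower and 5.46% higher. The 96 genes also hold those of the accessory gland and of egg and yolk given below. The lists were chosen with earlier results of these data known. Of the genes called lower, Taf7, AGO3, snm and ORY were dim, with mean log2 levels of 2.25, 2.69, 2.18 and 2.98 in CH-dmDys flies. In normoxic dmDys flies their means were 3.98, 3.92, 3.61 and 4.43. The calls of these genes were lost with a floor at a log2 level of 4. Of 8 other subunits of tMAC and of the related dREAM complex, 2 were called, both lower: achi, at 4.43, 3.80, 4.03 and 4.70 in CH-dmDys flies, against 6.05, 6.02, 5.39 and 6.08 in normoxic dmDys flies (log2 difference -1.64, standard error 0.25, adjusted p = 0.008), and vis (-1.38, standard error 0.21, adjusted p = 0.009). These homeodomain proteins are encoded by near-identical neighbouring copies and partner the tMAC subunits. Of 9 general TAFs, the broadly used relatives of the testis TAFs, 1 was called, Taf7 (-1.73, standard error 0.35, adjusted p = 0.019). Its call was lost when any 1 of 4 flies was left out, namely CH-dmDys replicates 6, 7 and 8 and normoxic dmDys replicate 6 (adjusted p up to 0.057).

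Of 9 genes of early germ cells, stem cells and spermatogonia, 2 were called, both lower. Bgcn, which limits the divisions of spermatogonia, had log2 levels of 8.16, 8.11, 7.74 and 7.80 in CH-dmDys flies, against 9.42, 9.61, 9.22 and 9.42 in normoxic dmDys flies (log2 difference -1.47, standard error 0.13, adjusted p = 0.002), without overlap. AGO3, of the piRNA pathway that silences transposons in the germline, was called too (-1.23, standard error 0.28, adjusted p = 0.028). It lost its call without any 1 of 7 flies and with a floor at a log2 level of 4. Of 8 genes of the meiotic divisions 5 passed the adjusted p, all lower (62.5%, against 20.2% of all probe sets). The median log2 difference over the 8 was -0.61. Of these genes ord (-1.43, adjusted p = 0.010) and snm (-1.43, adjusted p = 0.027), which hold chromosomes together in meiosis, were called lower. The call of snm was lost without any 1 of 6 flies and with a floor at a log2 level of 4. Bgcn, ord, achi and vis kept their calls in all 8 such fits. In 1 limma fit over all 4 groups bgcn, ord and vis lost their calls and achi did not. With the sample number as a replicate block none of these genes passed.

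Later genes outside the member list differed in direction from list to list. Of 12 cup and comet genes, a group transcribed in spermatids after meiosis, 10 were lower in mean (83.3%, against 62.8% of all probe sets). By the adjusted p 5 of the 12 passed, all lower (41.7%, against 20.2% of all probe sets). D-cup (-1.24, adjusted p = 0.012) and p-cup (-1.68, adjusted p = 0.028) were called lower. P-cup lost its call without any 1 of 6 flies, and d-cup in 1 limma fit over all 4 groups. Of 11 other spermatid genes 2 were lower and 2 higher by the adjusted p (36.4% together). Of these 11 genes 1 was called, Prosalpha3T, a testis subunit of the proteasome, higher by 1.84 (standard error 0.47, adjusted p = 0.040), a call that was lost without any 1 of 7 flies. Of 6 fertility genes of the Y chromosome 1 was called lower, ORY (-1.45, adjusted p = 0.019). This call was lost without any 1 of 5 flies and with a floor at a log2 level of 4. Of 17 accessory gland and ejaculatory bulb genes 0 were called by limma, with a median log2 difference of 0.05 and 2 genes at an unadjusted p under 0.05, and PebIII (0.84, adjusted p = 0.027) passed the adjusted p alone. Of 15 egg and yolk genes 1 was called, grk (-1.14, adjusted p = 0.034), which lost its call without any 1 of 7 flies. Grk, known from the egg chamber, where it patterns the egg, had log2 levels of 6.77 to 9.54 over the 16 flies.

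**Figure D3:**
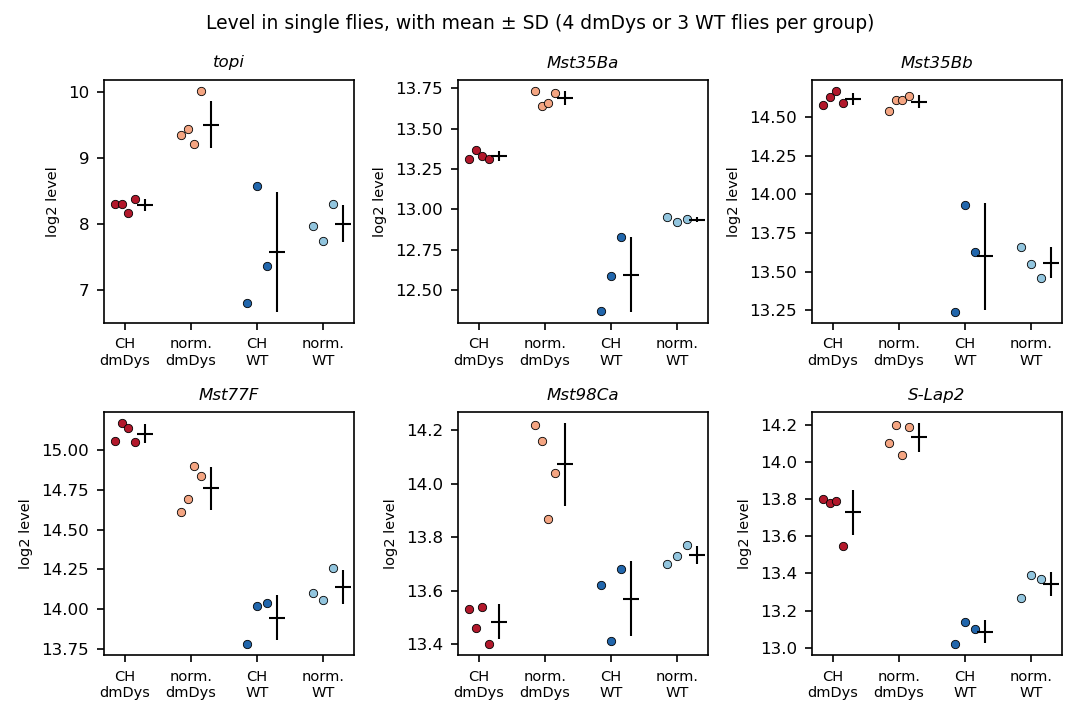
Each panel plots the log2 level of 1 gene in single flies (points), with the mean and SD of each group beside them (4 dmDys or 3 WT flies, CH-WT replicate 7 and normoxic WT replicate 5 left out). In CH-dmDys flies topi, Mst35Ba, Mst98Ca and S-Lap2 lie below and Mst77F above all normoxic dmDys flies, while Mst35Bb overlaps; WT levels stand beside dmDys levels on another scale of the arrays.

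In WT flies no spermatogenesis gene passed the test under CH, with or without the 2 flies that lacked testis signal. Of 18907 probe sets limma called 0 with all 8 flies (0%; 232 had an unadjusted p under 0.05) and 0 without the 2 flies (0%; 897 had an unadjusted p under 0.05). With all 8 flies 29 of 30 members were lower in mean in CH-WT flies, against 68.8% of all probe sets, but this count rested on which flies were in the groups. It was 3 of 30 without CH-WT replicate 7 and 30 of 30 without normoxic WT replicate 5, and the standard errors of the late sperm genes ran from 0.98 (bol) to 4.13 (Mst84Db). The groups of all 8 flies did not overlap in 0 of 30 members, against 0.873% of all probe sets.

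With those 2 flies left out the members leaned the same way by small amounts. Of 30 members 29 were lower in mean in CH-WT flies, against 68.6% of all probe sets (29 and 34.6% without CH-WT replicate 5, 25 and 69.8% without CH-WT replicate 3), and the exception was Mst35Bb (log2 difference 0.05, standard error 0.20). The groups of 3 flies did not overlap in 10 members, all lower in CH-WT flies (33.3%, against 9.44% of all probe sets in both directions and 4.40% lower). These were aly, betaTub85D, dj, Mst35Ba, Mst77F, Mst98Ca, janB, S-Lap2, S-Lap5 and S-Lap8. Without CH-WT replicate 6 the count was 19. An unadjusted p under 0.05 was reached by 4 of 30 members, and the lowest adjusted p was 0.623, for S-Lap2.

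The largest differences among these 6 flies rested in part on CH-WT replicate 3. Fzo had log2 levels of 7.63, 9.12 and 9.09 in CH-WT flies, against 9.08, 9.35 and 9.92 in normoxic WT flies (log2 difference -0.84, standard error 0.52, adjusted p = 0.911). Can had 7.16, 7.62 and 8.35 in CH-WT flies, against 8.23, 8.57 and 8.81 in normoxic WT flies (log2 difference -0.83, standard error 0.36, adjusted p = 0.911). In both genes CH-WT replicate 3 was the lowest fly. S-Lap5 had 8.74, 9.78 and 9.33 in CH-WT flies, against 9.81, 9.92 and 10.40 in normoxic WT flies, without overlap (log2 difference -0.76, standard error 0.33, adjusted p = 0.911). Nht had 2.59, 4.67 and 5.21 in CH-WT flies, against 3.97, 4.59 and 5.54 in normoxic WT flies (log2 difference -0.54, standard error 0.87, adjusted p = 0.911).

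Replicate 3 had the lowest level of the 3 CH-WT flies in all 9 regulators, by values that for comr differed in decimals not printed here, and in 13 of 21 late sperm genes. Topi had log2 levels of 6.79, 8.57 and 7.36 in CH-WT flies, against 7.96, 7.74 and 8.30 in normoxic WT flies. Sa had 6.09, 8.57 and 7.40 in CH-WT flies, against 7.25, 8.01 and 8.04 in normoxic WT flies. In topi and sa the CH-WT flies lay on both sides of the normoxic WT flies. Rye had 8.15, 9.00 and 8.94 in CH-WT flies, against 8.78, 9.35 and 9.04 in normoxic WT flies, and mia had 3.32, 3.79 and 3.58, against 3.61, 3.97 and 3.56. Tomb had 2.15, 3.92 and 3.05 in CH-WT flies, against 2.97, 3.10 and 3.80 in normoxic WT flies, and comr 2.14 in each CH-WT fly, against 2.15, 2.14 and 2.15. The median deviation of the 9 regulators from the mean of the 3 CH-WT flies was -0.55 in replicate 3, 0.30 in replicate 5 and 0.02 in replicate 6. Without replicate 3 the median difference of the regulators was -0.02, against -0.36 with it, while that of the late sperm genes was -0.19 with and without it. Replicate 3 is also the CH-WT fly whose strain label reads dmDys, against its title, and its array shares the lowest value of 1.95 with the other WT arrays.

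Differences of the other members were small. Aly, a regulator with little spread, had log2 levels of 4.77, 4.78 and 4.79 in CH-WT flies, against 4.86, 4.95 and 5.02 in normoxic WT flies (log2 difference -0.17, standard error 0.04, adjusted p = 0.844). BetaTub85D had 12.60, 12.85 and 13.10 in CH-WT flies, against 13.13, 13.15 and 13.28 in normoxic WT flies (log2 difference -0.33). Dj had 10.62, 10.30 and 11.00 in CH-WT flies, against 11.11, 11.01 and 11.11 in normoxic WT flies (log2 difference -0.43). In these 3 genes the groups did not overlap, by narrow margins. Bol (13.13, 13.40 and 13.52 in CH-WT flies, against 13.52, 13.43 and 13.63 in normoxic WT flies) and Mst87F (13.84, 13.86 and 13.98 in CH-WT flies, against 13.94, 13.97 and 14.02 in normoxic WT flies) overlapped. S-Lap2 had 13.02, 13.14 and 13.10 in CH-WT flies, against 13.27, 13.39 and 13.37 in normoxic WT flies (log2 difference -0.26, standard error 0.05). Mst98Ca had 13.62, 13.41 and 13.68 in CH-WT flies, against 13.70, 13.73 and 13.77 in normoxic WT flies (log2 difference -0.17). Of the protamines, Mst35Ba did not overlap and Mst35Bb did, with Mst35Ba at 12.37, 12.59 and 12.83 in CH-WT flies, against 12.95, 12.92 and 12.94 in normoxic WT flies (log2 difference -0.34, standard error 0.13), and Mst35Bb at 13.24, 13.93 and 13.63 in CH-WT flies, against 13.66, 13.55 and 13.46 in normoxic WT flies. The 3' minus 5' value of the control transcripts over all 8 WT flies was 6.07 ± 1.06 in CH-WT flies, against 7.16 ± 0.16 in normoxic WT flies (mean ± SD of 4; exact permutation test, two-sided, p = 0.029 before and after adjustment), and its part was not tested.

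The CH responses of dmDys and WT flies were compared by an interaction in limma, the log2 difference under CH in dmDys flies minus that in WT flies. CH differed between the genotypes in pressure and place, so genotype and type of hypoxia cannot be told apart here, and the scales of the arrays differ too. With all 16 flies 0 of 30 members were called, against 169 of 18907 probe sets (0.894%), and 0 of 30 had an unadjusted p under 0.05. With the 2 flies that lacked testis signal left out again 0 of 30 were called, against 698 probe sets (3.69%), and 1 of 30 passed the adjusted p, against 4.83% of all probe sets. That gene was Mst77F, at 13.78, 14.02 and 14.04 in CH-WT flies, against 14.10, 14.06 and 14.26 in normoxic WT flies, so that it was higher under CH in dmDys flies (0.35) and lower in mean in WT flies (-0.19). The difference of the log2 differences was 0.54 (standard error 0.12, adjusted p = 0.032), and it was lost without any 1 of 7 of the 14 flies, of both genotypes (adjusted p up to 0.086). With all 16 flies the limma adjusted p of Mst77F was 0.987. The 2 flies were left out for the low levels of these same members, so the fit of 14 flies is not an independent test of them.

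The 5 testis TAFs all had a positive interaction in these 14 flies, from 0.30 (mia) to 1.10 (nht), and none passed. Can had an interaction of 1.07 (standard error 0.42, adjusted p = 0.201). Among the tMAC genes topi had -0.79 (standard error 0.50, adjusted p = 0.514), so the response of topi was not shown to differ between the genotypes. Mst98Ca had -0.42 (standard error 0.12, adjusted p = 0.076). Of the related genes, achi had an interaction of -1.47 with all 16 flies (adjusted p = 0.026), a call that was lost in 13 of 24 alternatives, 10 of which left out a single fly (adjusted p up to 0.066 in these and up to 0.660 in all). Its interaction was -1.60 without the 2 flies (standard error 0.30, adjusted p = 0.015), and in the fit without them it passed whichever further fly was left out (adjusted p up to 0.044). Taf7 had -1.79 without the 2 flies (adjusted p = 0.042), lost without any 1 of 12 of the 14 flies.

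CH-WT replicate 7 and normoxic WT replicate 5 were named in the choice of genes as flies without testis signal, so their member levels are a description. At least 5 log2 units under the mean of the other 6 WT flies, in both of them, lay 22 of 30 members (73.3%) and 1265 of 18907 probe sets (6.69%). The late sperm genes had a median log2 difference from that mean of -11.16 in CH-WT replicate 7 and -11.10 in normoxic WT replicate 5, and 20 of 21 were over 5 units below it. BetaTub85D, for example, was at 2.23 in CH-WT replicate 7 and 2.21 in normoxic WT replicate 5, against 12.60 to 13.28 in the other 6 WT flies, and dj was at 2.38 and 2.13, against 10.30 to 11.11. Fzo was at 2.39 in CH-WT replicate 7 and 2.23 in normoxic WT replicate 5, against 7.63 to 9.92. These values lie at the floor of the arrays, so each distance has the floor as its limit.

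A few members stayed above the floor in these 2 flies. Bol was at 10.54 in CH-WT replicate 7 and 10.65 in normoxic WT replicate 5, against 13.13 to 13.63 in the other 6 WT flies, and a dimmer probe set of bol was at 9.25 and 8.96, against 6.78 to 7.90. Bol was thus lower by 1 probe set and higher by another in the same flies. Higher levels in these flies were not particular to bol. The median of 9 general TAFs was 8.83 in CH-WT replicate 7 and 9.21 in normoxic WT replicate 5, against 5.59 to 6.66 in the other 6 WT flies, though Taf8 and Taf9 were not higher. Topi was at 3.99 in CH-WT replicate 7 and 5.51 in normoxic WT replicate 5, against 6.79 to 8.57, rye at 2.66 and 5.40, against 8.15 to 9.35, and Mst84Dc at 2.21 and 4.13, against 14.71 to 14.91. In topi, rye and Mst84Dc normoxic WT replicate 5 was the higher of the 2. Among the other regulators, aly, can, sa and nht were at 2.13 to 2.19 in both flies, mia at 2.59 and 3.51, and comr and tomb, dim in every WT fly, no more than 0.28 under the mean of the other 6. The neighbouring copies achi and vis parted in these flies: vis was at 2.02 in CH-WT replicate 7 and 2.37 in normoxic WT replicate 5, against 6.69 to 8.25, and achi at 6.26 and 6.83, against 6.70 to 6.83.

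The 2 flies were alike in late sperm genes and unlike in genes of early germ cells. In normoxic WT replicate 5, 7 of 9 early germline genes lay more than 2 log2 units above the lowest value (median 6.07), in CH-WT replicate 7 0 of 9 did (median 2.13), and in the other 6 WT flies 2 or 3 of 9 (medians 2.18 to 2.21). Bgcn was at 2.37 in CH-WT replicate 7 and 8.96 in normoxic WT replicate 5, against 7.93 to 9.57 in the other 6, and tut, which works with bgcn in spermatogonia, was at 2.10 and 8.17, against 7.94 to 10.12. Normoxic WT replicate 5 was thus within the range of the other flies in both genes, and CH-WT replicate 7 at the floor. Nos, a translational regulator of germline stem cells, was at 2.13 in CH-WT replicate 7 and 7.77 in normoxic WT replicate 5, against 2.13 to 2.21, and aub, of the piRNA pathway, at 2.87 and 9.86, against 3.74 to 5.12. Zpg, a gap junction protein of the germline, was at 2.16 and 5.16, against 2.15 to 2.16, and piwi at 2.19 and 4.93, against 2.18 to 2.19. These 4 genes were higher in normoxic WT replicate 5 than in each other WT fly. Of the meiotic genes CycB (2.18 in CH-WT replicate 7 and 6.10 in normoxic WT replicate 5, against 2.28 to 2.41) and tef (2.46 and 5.01, against 2.16 to 2.27) followed the same pattern. Egg and yolk genes other than grk lay within 2 log2 units of the lowest value in both flies, and all 17 accessory gland and ejaculatory bulb genes were above it.

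**Figure D4:**
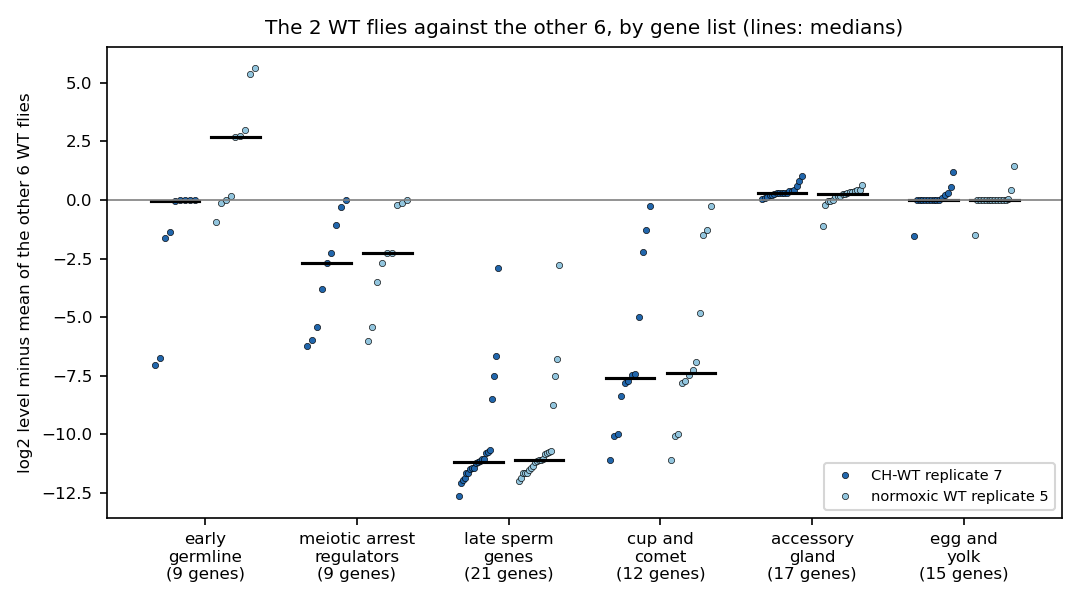
Points give, for each gene of 6 lists, the log2 level of CH-WT replicate 7 (dark) or normoxic WT replicate 5 (light) minus the mean of the other 6 WT flies; lines are medians. Late sperm genes lie near -11.16 and -11.10 in the 2 flies, and early germline genes lie near or below 0 in CH-WT replicate 7 and are highest for nos, at 7.77 against at most 2.21, in normoxic WT replicate 5.

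**Figure D5:**
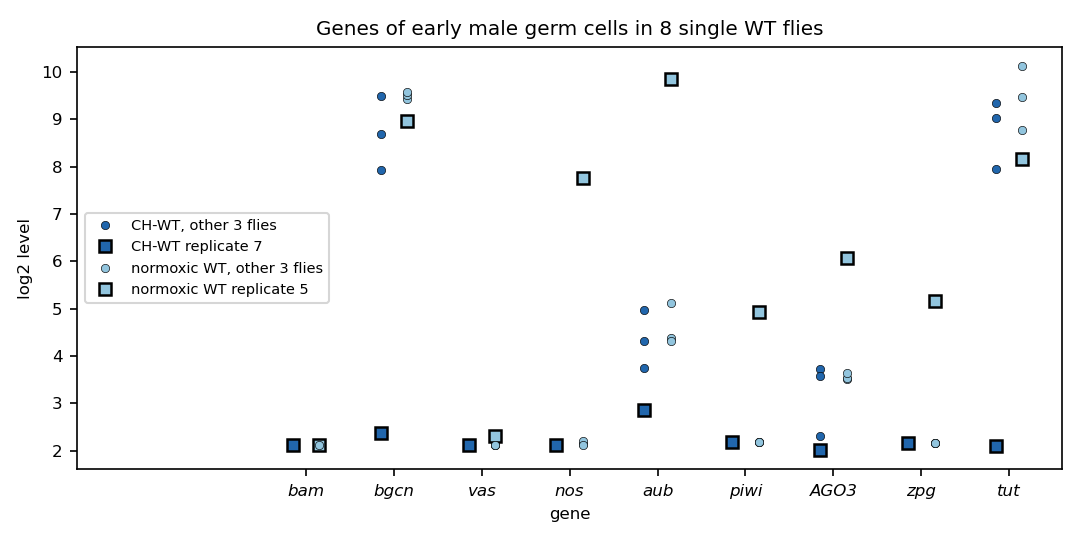
Points give the log2 level of 9 early germline genes in the 8 WT flies, with squares for CH-WT replicate 7 and normoxic WT replicate 5 and circles for the other 3 flies of each group. In normoxic WT replicate 5 nos, aub, piwi, AGO3 and zpg lie above every other WT fly, and bgcn and tut are at 2.37 and 2.10 in CH-WT replicate 7.

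Regulators varied more from fly to fly than late sperm genes did in each of the 4 groups. The median SD of the log2 level was 0.11 over the regulators and 0.06 over the late sperm genes in CH-dmDys flies, 0.30 and 0.07 in normoxic dmDys flies, 0.60 and 0.20 in 3 CH-WT flies, and 0.29 and 0.06 in 3 normoxic WT flies. The median over all probe sets was 0.07, 0.10, 0.13 and 0.06 in the same groups. Late sperm genes lie near the highest values of the arrays (15.68 to 15.89), and the part of this in their spread was not tested. The most variable members were sa among regulators of both dmDys groups and nht among those of both WT groups, and S-Lap5 and fzo among late sperm genes of the dmDys and the WT groups.

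Levels of normoxic dmDys and normoxic WT flies depended on the scale of the arrays. As deposited, all 21 late sperm genes were higher in normoxic dmDys flies than in the 3 normoxic WT flies with testis signal, by a median log2 difference of 0.64. After quantile normalization over all 16 arrays 11 of 21 were higher and the median was 0.03. Of the regulators 5 were higher in normoxic dmDys flies on both scales, mia (1.95 as deposited and 1.59 after quantile normalization), sa (1.80 and 0.84), nht (1.08 and 0.62), comr (0.30 and 0.33) and topi (means of 9.50 against 8.00 as deposited, and 0.48 after quantile normalization). Can was higher on the deposited scale alone (0.17 and -0.87), and aly (-0.94 and -1.28), tomb (-0.87 and -0.89) and rye (-0.51 and -1.57) were lower on both. Comr (means of 2.45 in normoxic dmDys and 2.15 in normoxic WT flies as deposited) and tomb (2.42 and 3.29) lay near the floor, where the arrays measure little. These values are a description, since the scales of the 2 genotypes cannot be told apart from the genotypes.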

How the data were processed

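RNA of 16 flies was amplified with the NuGEN Ovation system and hybridised to 16 arrays, and the authors made expression values from the scans by GCRMA (GeneSpring GX 7.3.1). The deposited values are intensity on a linear scale per probe set, 1 column per fly, with no pooling; dmDys and WT arrays appear to have been normalized apart. Log2 was taken with no offset. Of 18952 probe sets 45 spike-in controls were left out and 18907 tested with lmFit and eBayes of limma 3.58.1 (R 4.3.3). Of the probe sets 13647 carry 1 gene symbol, 402 several and 4903 none. RefSeq lists rye, Mst35Ba and Mst35Bb as Taf12L, ProtA and ProtB, and rye and bol have several probe sets.

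Titles set the groups. Some labels conflict with them: the strain of CH-WT replicate 3 reads dmDys, CH-WT replicate 5 has another sample number in 1 label, CH-dmDys replicate 5 has no strain, and normoxic dmDys source names contain CH. The members and lists were chosen with earlier results of these data known. SAM, which the methods name, was not run. Values are given per fly for the regulators, 6 late sperm genes set by name and the largest differences of each comparison; of other lists, called genes come first. Alternatives covered scaling, a floor, filters, weights, moderation, the flies in the fit and leaving out each fly. Tests were checked on simulated arrays.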

Additional observations from a re-analysis of the deposited data

Results flagged for a closer look

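Of 120 groups of 4 flies, 1 for each of the 30 genes in each of the 4 groups, 51 held a fly far from the other 3 by Dixon's criterion. CH-WT replicate 7 and normoxic WT replicate 5, named in the choice of genes as lacking testis signal, give most of these, so their values are a description. CH-WT replicate 7 was the lowest fly in 22 of them, with log2 levels of aly 2.17, rye 2.66, bol 10.54, betaTub85D 2.23, dj 2.38, djl 2.27, Mst35Ba 2.01, Mst35Bb 2.42, Mst77F 2.57, Mst84Da 2.34, Mst84Db 2.50, Mst84Dc 2.21, Mst84Dd 2.39, Mst87F 2.50, Mst98Ca 2.50, Mst98Cb 2.11, janB 2.16, ocn 2.14, S-Lap2 2.19, S-Lap5 2.16, S-Lap7 2.20 and S-Lap8 2.82. Normoxic WT replicate 5 was the lowest fly in 25, with log2 levels of aly 2.19, can 2.13, sa 2.14, rye 5.40, bol 10.65, betaTub85D 2.21, fzo 2.23, dj 2.13, djl 2.10, Mst35Ba 2.01, Mst35Bb 2.42, Mst77F 2.92, Mst84Da 2.23, Mst84Db 2.60, Mst84Dc 4.13, Mst84Dd 2.31, Mst87F 2.50, Mst98Ca 2.55, Mst98Cb 2.11, janB 2.25, ocn 2.14, S-Lap2 2.17, S-Lap5 2.16, S-Lap7 2.40 and S-Lap8 2.81. The other flies gave 4, where chance alone marks about 1 group in 20. CH-dmDys replicate 6 was lowest in aly (3.47, against 3.68 in each of the other 3), CH-dmDys replicate 7 in tomb (2.10, against 2.19 to 2.20) and CH-dmDys replicate 8 in S-Lap2 (13.55, against 13.78 to 13.80), and normoxic WT replicate 6 was highest in tomb (3.80, against 2.97 to 3.10).

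The CH responses of dmDys and WT flies differed by the limma interaction in achi with all 16 flies (log2 interaction -1.47) and, with the 2 WT flies named above left out, in achi (-1.60), Taf7 (-1.79) and Mst77F (0.54). The 2 flies were left out for the low levels of the members, so the results of 14 flies depend on that choice. With 16 flies the limma adjusted p was 0.931 for Taf7 and 0.987 for Mst77F. With 16 flies the call of achi was lost in 13 of 24 alternatives. With 14 flies, leaving out a further fly lost the call of achi in 0, Taf7 in 12 and Mst77F in 7 of 14 cases.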

How the results depend on the processing

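No value that passed the test with all flies in the fit turned its direction under the alternatives run. Values that had not passed there did turn. The interactions of Mst77F and Taf7 passed only with the 2 WT flies that lack testis signal left out. Over the alternatives they ran from -2.27 to 3.38 for Mst77F and from -2.23 to 0.08 for Taf7. With those 2 flies left out, leaving out a further fly gave 0.45 to 0.59 for Mst77F and -2.08 to -1.52 for Taf7. With 8 WT flies the median of late sperm genes was -0.17, and it was 2.63 without CH-WT replicate 7, 0.78, 0.76 and 0.78 without normoxic WT replicates 2, 3 and 6, and -2.99 without normoxic WT replicate 5. The interaction medians of both classes turned likewise when a WT fly was left out (late sperm genes -2.75 to 2.86, against 0.03). In dmDys flies dj, Mst35Bb and ocn turned lower after centring or quantile normalization without passing, and the median of the regulators (-0.03) ran from -0.14 to 0.19. In dmDys flies the median log2 difference of late sperm genes was -0.28 after quantile normalization and -0.25 after centring of arrays, against -0.17, and centring gave 18 members with an adjusted p under 0.05, against 10. With no fold threshold 10 members and 3819 probe sets were called. In 1 limma fit over all 4 groups 0 members were called, 0 passed the adjusted p, and 912 probe sets were called, against 1801. With the 2 WT flies that lack testis signal left out, an alternative chosen after seeing the data, the same fit called 1 member and 1934 probe sets. Leaving out 1 fly gave 5 to 13 members with an adjusted p under 0.05.

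Whether the sample numbers pair the flies cannot be settled here, since few flies share a number. Correlations of same-numbered deviations were -0.19, -0.03 and 0.11 in dmDys flies and 0.67, -0.88 and 0.61 in WT flies. The value of -0.88 is for number 5, which includes normoxic WT replicate 5, a fly that lacked testis signal. With the number as a replicate block over 6 dmDys flies, 0 members were called, 0 passed the adjusted p and 12 probe sets were called. In WT flies the block gave 0 calls among members and turned the direction, with 3 members lower and 27 higher, against 29 and 1, and a late sperm median of 3.55.

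In WT flies 2 probe sets were called after quantile normalization, 6 with array weights, 10 in 1 fit over all 4 groups and 0 to 1 when a fly was left out, against 0. Calls of the interaction numbered 102 after quantile normalization, 54 with array weights, 115 to 321 when a fly was left out (321 without CH-WT replicate 7 and 309 without normoxic WT replicate 5) and 698 without both, where 1 member passed the adjusted p, against 169 and 0 with all 16 flies. The 3' minus 5' difference was -6.06 to -4.54 in dmDys flies and -1.32 to -0.56 in WT flies when a fly was left out, with exact permutation p up to 0.057 in dmDys flies and 0.114 in WT flies, and -0.22 with middle probe sets in WT flies (exact permutation p = 0.457). The fits that left out a further WT fly were also chosen after seeing the data. Levels at the floor of the arrays limit comr, tomb and every member that is dim in CH-WT replicate 7 and normoxic WT replicate 5. Among related genes, levels near the floor limit Taf7, AGO3, snm and ORY, whose calls in dmDys flies were lost with a floor at a log2 level of 4.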
